A study of Mus musculus with 6 samples.

Results

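Ribosomal protein genes were examined by RNA sequencing in tumour monocytes of C57BL/6 mice. The tumours grew under the skin from injected B16.F10 cells, a transplantable mouse melanoma line, and the monocytes were sorted on day 13. The injected cells overexpressed BAFF, the B cell activating factor, in one group (BAFF tumours, 3 libraries) and were control cells in the other (control tumours, 3 libraries). The comparison asks how BAFF made by the tumour cells alters the transcripts of the monocytes in the tumour. The labels give neither the age of the mice nor the way BAFF was expressed, and no label ties a library to a mouse, so that p-values measure only the spread between these samples.

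Genes were taken by symbol: Rpl, Rps, Rplp and Rpsa names for the cytosolic ribosome and Mrpl and Mrps names for the mitochondrial ribosome. This gave 170 of the 18341 rows of the deposited table. The cytosolic set had 88 rows, 52 for the large and 36 for the small subunit, and the mitochondrial set had 82 rows, 51 for the large and 31 for the small subunit. Of these rows, 6 cytosolic and 4 mitochondrial ones are annotated as pseudogenes in GENCODE, which left 82 and 78 protein-coding genes. A mean of at least 1 CPM, reads scaled to an equal total in every library, was required for testing, and 167 rows passed. The other 3 were Rpl39l (mean 0.177 CPM), Rpl3l (0.196 CPM) and the pseudogene Mrps36-ps1.

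The cytosolic ribosome translates the messages of the nuclear genome. Its small subunit reads the message, and its large subunit joins the amino acids. The mitochondrial ribosome translates the few messages of the mitochondrial genome, but its own proteins are nuclear-encoded and imported. Many cytosolic ribosomal protein messages begin with a C and a run of pyrimidines, the 5′ terminal oligopyrimidine (TOP) start, through which growth signalling by mTORC1 sets their translation. The mammalian genome carries many processed pseudogenes of cytosolic ribosomal protein genes, which are intronless copies of their messages.

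The beginnings of the genes that passed the test below are shown to mark which annotated starts match the TOP start. Rpl38, the member with the smallest p on the deposited scale, is shown as well. Each line gives the RefSeq reference on the strand of the gene (build GRCm38.p6), 30 bases before the annotated start and 20 from it. Capitals mark the run of pyrimidines that begins at the annotated start, or the first base alone where it is a purine.
Rpl38, chr11:114668550-114668599 (+): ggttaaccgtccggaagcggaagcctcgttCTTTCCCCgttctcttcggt
Rps27, chr3:90213629-90213678 (-): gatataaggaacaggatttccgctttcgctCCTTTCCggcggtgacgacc
Rps6, chr4:86857348-86857397 (-): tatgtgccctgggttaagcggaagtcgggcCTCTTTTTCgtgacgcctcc
Rps28, chr17:33824543-33824592 (-): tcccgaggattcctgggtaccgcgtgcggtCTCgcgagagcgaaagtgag
Rpl13, chr8:123102320-123102369 (+): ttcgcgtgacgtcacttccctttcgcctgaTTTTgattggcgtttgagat
Rps3a1, chr3:86142649-86142698 (-): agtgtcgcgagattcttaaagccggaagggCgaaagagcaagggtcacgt
Rpl37, chr15:5116583-5116632 (+): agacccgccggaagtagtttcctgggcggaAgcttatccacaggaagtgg
Rps12, chr10:23787190-23787239 (-): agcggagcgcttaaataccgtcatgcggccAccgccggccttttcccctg
Rps23, chr13:90923092-90923141 (+): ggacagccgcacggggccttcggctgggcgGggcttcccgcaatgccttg
Rpl10, chrX:74270786-74270835 (+): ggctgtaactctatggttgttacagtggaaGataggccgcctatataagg
Mrpl33, chr5:31613921-31613970 (+): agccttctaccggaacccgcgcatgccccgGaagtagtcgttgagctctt

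Among these 11 genes, Rpl38, Rps27 and Rps6 had a TOP start, taken as C at the annotated start followed by at least 4 pyrimidines. Windows were found for 62 cytosolic and 69 mitochondrial genes, and the TOP start stood in 13 cytosolic genes (21%), in 0 mitochondrial genes and in 3.01% of 10315 protein-coding genes of the table. Searched on both strands from 250 bases before to 50 bases after the annotated start, CCGGAAGT, the site of ETS factors, was in 19.4% of cytosolic, 17.4% of mitochondrial and 8.95% of all genes. The letters GCGCATGCG of NRF1, a regulator of nuclear genes for mitochondrial proteins, were in 4.84% of cytosolic, 10.1% of mitochondrial and 3.98% of all genes. AAGATGGCG of YY1 was in 6.45%, 11.6% and 3.44% in the same order, GGGGCGGGG of SP1 in 8.06%, 18.8% and 24.2%, and CTCTTTCC, an initiator sequence of ribosomal protein genes that can lie within a TOP start, in 16.1%, 1.45% and 3.81%. These letters describe the reference windows and not the use of a site in monocytes, and annotated starts can differ from the bases where transcription begins.

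The libraries differed in depth and in content, also within the control group. One CPM stood for an estimated 4.72 to 27.6 reads, and BAFF tumour 2 and control tumour 1 were the deepest. The listed genes held 39.8% to 66.1% of the library total, least in control tumours 2 and 3, where a ribosomal RNA gene, CT010467.1, had 27017 and 43052 CPM compared with 299 to 5880 CPM in the others. On the deposited scale the median of all tested genes was therefore not 0 but 0.23 (log2, BAFF minus control). Values are given on that scale and after median-of-ratios scaling (RLE), which brings this median to 0.0086. The monocyte and macrophage markers were abundant in every library, with 10 of 10 found and 5636 to 11544 CPM in sum, as the series design states, although a source label names the melanoma line. The 8 melanoma markers, none of which was at 0 in all libraries, summed to 76.9 to 162 CPM in BAFF tumours and 396 to 682 CPM in control tumours, and the 8 cell cycle genes to 89.0 to 92.4 and 171 to 350 CPM. After scaling, 7 of the 8 melanoma markers and 8 of the 8 cell cycle genes were called lower in BAFF tumours. Of all 12824 tested genes, 1271 were called lower and 921 higher. Of the monocyte and macrophage markers 3 of 10 were called higher (median log2 fold change 0.31). The 5 tested neutrophil markers were all positive (median 0.83). Of these, 1 was called after scaling and 4 on the deposited scale, where 5.31% of all genes were called. Of 5 fibroblast and endothelium markers, Pecam1 was called higher (0.63) and Col1a1 lower (-1.14). Their scaled sum was 131 CPM for control tumour 1, beside 38.8 to 62.1 CPM elsewhere. Of 2 tested B and plasma cell markers, Jchain was called lower (-1.18). The T and NK cell markers had 0 of 3 called. The part of these differences in the results on ribosomal protein genes was not tested, and in such bulk samples fewer cells of a type and less RNA per cell cannot be told apart.

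Cytosolic ribosomal protein genes stood higher relative to mitochondrial ones in monocytes from BAFF tumours. The summed CPM of the cytosolic set was 9.64, 9.46 and 9.66 times that of the mitochondrial set in BAFF tumours 1, 2 and 3, and 8.57, 8.09 and 8.69 times in control tumours 1, 2 and 3. The groups did not overlap, with means of 9.59 ± 0.11 (SD, n = 3) and 8.45 ± 0.32 (SD, n = 3), a difference in log2 ratio of 0.18. Such a ratio within a library does not depend on how the library is scaled. The deep pair alone gave 9.46 in BAFF tumour 2 and 8.57 in control tumour 1. No p is given for a summed score, since the genes were chosen with earlier results known.

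**Figure D1:**
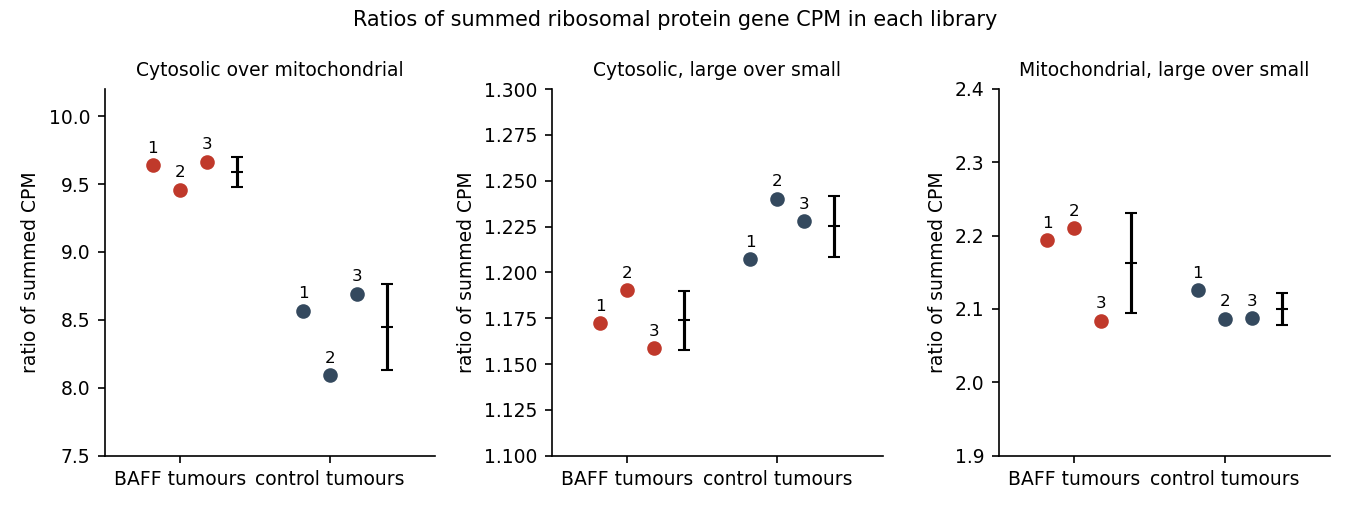
Ratio of summed CPM (y axis, not starting at 0) in each library, numbered by replicate, for cytosolic over mitochondrial genes and for large over small subunit genes within each ribosome; bars give mean ± SD of 3 libraries. The cytosolic over mitochondrial ratio of the BAFF tumours, 9.46 to 9.66, lies above that of the control tumours, 8.09 to 8.69, and the cytosolic large over small ratio lies below, whereas the mitochondrial ratio overlaps.

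The summed CPM of either set by itself overlapped between groups. On the deposited scale the cytosolic set summed to 8565, 9570 and 8060 CPM in BAFF tumours and 8698, 6558 and 5070 CPM in control tumours, so that control tumour 1 lay within the BAFF range. The mitochondrial set summed to 889, 1012 and 834 CPM in BAFF tumours and 1015, 811 and 583 CPM in control tumours, and overlapped as well. After scaling the cytosolic sums were 7976, 8346 and 7514 against 6833, 7220 and 7531, and the mitochondrial sums 828, 882 and 777 against 797, 892 and 866. As a share of all listed CPM, cytosolic genes held 1.37%, 1.45% and 1.32% in BAFF tumours and 1.33%, 1.31% and 1.27% in control tumours, and these ranges overlapped, whether or not the ribosomal RNA gene was counted among the listed genes. Mitochondrial genes held 0.142%, 0.153% and 0.136% in BAFF tumours and 0.155%, 0.162% and 0.147% in control tumours, which overlapped. Without the ribosomal RNA gene the mitochondrial share was 0.143%, 0.153% and 0.138% against 0.155%, 0.171% and 0.164%, lower in every BAFF tumour library than in any control library.

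The difference between the ribosomes was larger for the small subunits (0.24 in log2 ratio) than for the large ones (0.14). Summed cytosolic small subunit CPM was 14.2, 13.9 and 13.8 times the mitochondrial small subunit sum in BAFF tumours and 12.1, 11.1 and 12.0 times in control tumours. For the large subunits the corresponding ratios were 7.57, 7.47 and 7.68 against 6.89, 6.63 and 7.09. Neither pair of groups overlapped. Within the cytosolic ribosome, the large subunit sum was 1.17, 1.19 and 1.16 times the small subunit sum in BAFF tumours and 1.21, 1.24 and 1.23 times in control tumours, again without overlap but by only -0.06 in log2 ratio. From set medians of log2(CPM + 1) in place of sums, this ratio overlapped between groups. The mitochondrial large over small ratio was 2.19, 2.21 and 2.08 in BAFF tumours and 2.13, 2.09 and 2.09 in control tumours, where the groups overlapped.

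Gene by gene, no ribosomal protein gene passed the test on the deposited scale. Limma on log2(CPM + 1) with Benjamini-Hochberg adjustment over all 12824 genes tested called 0 of 167 members, against 5.31% of all tested genes. An unadjusted p under 0.05 was found in 9 members, beside 2053 of all 12824 genes. All 86 cytosolic fold changes were positive, as were 9502 of the 12824 genes on this scale. Of the cytosolic ones 76 lay above the median of all genes, as did 30 of 81 mitochondrial ones. Relative to that median, the median log2 fold change was 0.16 for the cytosolic large subunit, 0.19 for the cytosolic small subunit, -0.03 for the mitochondrial large subunit and -0.07 for the mitochondrial small subunit. The last 2 turned to 0.06 and 0.01 when no filter on low genes was applied, as the median of all genes fell from 0.23 to 0.15. The mitochondrial large and small subunit medians themselves stayed at 0.20 and 0.16. Single control libraries weighed heavily on this scale. Without control tumour 1, 49 cytosolic and 9 mitochondrial genes were called, all higher in BAFF tumours, against 40.5% of all genes. Without control tumour 3, the median of all genes was 0.035 and 1 cytosolic gene was called, against 9.13% of all genes. Then 78 of 86 cytosolic and 33 of 81 mitochondrial fold changes were positive, as were 7013 of the 12824 genes.

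After scaling, 10 members rose in BAFF tumours and 0 fell. They were 3 of 50 tested genes of the cytosolic large subunit, 6 of 36 of the cytosolic small subunit, 1 of 51 of the mitochondrial large subunit and 0 of 30 of the mitochondrial small subunit. Of all tested genes, 17.1% were called in either direction and 7.18% were called higher, so that the 9 of 86 cytosolic calls lay near the background share and the mitochondrial call below it. The set medians kept the order of the deposited scale, at 0.14, 0.17, -0.01 and -0.07 for cytosolic large, cytosolic small, mitochondrial large and mitochondrial small genes, with 42 of 50, 31 of 36, 22 of 51 and 9 of 30 fold changes above 0. For all tested genes the median was 0.0086, with quartiles of -0.22 and 0.20.

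**Figure D2:**
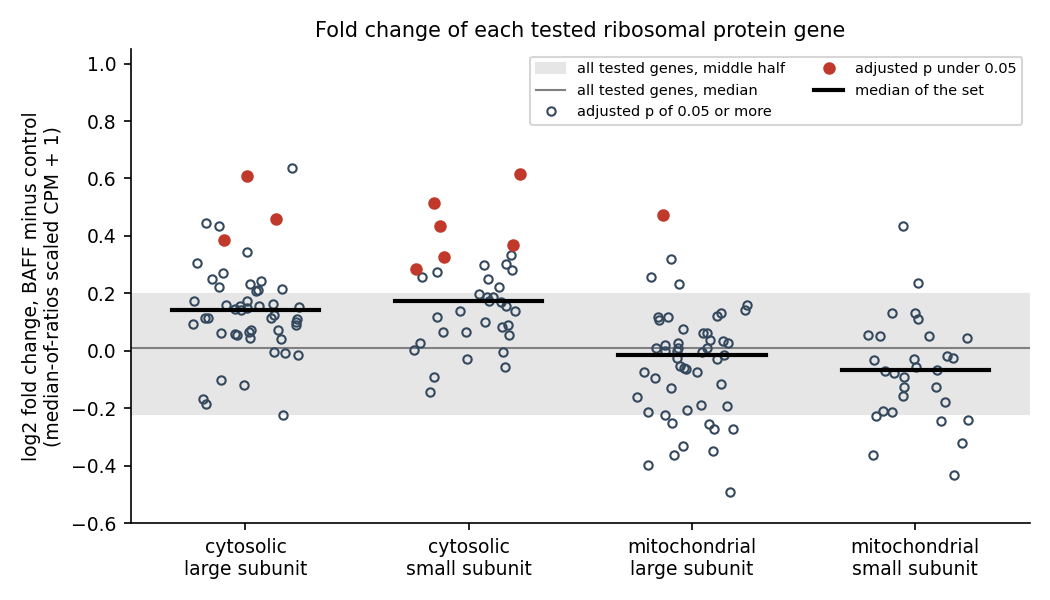
Log2 fold change of each tested member (y axis, BAFF minus control, median-of-ratios scaled CPM with a pseudocount of 1) by ribosome and subunit; filled points have an adjusted p under 0.05, black lines are set medians, and the grey band and line are the interquartile range and median of all tested genes. The medians of the cytosolic sets, 0.14 and 0.17, lie above the median of all genes and those of the mitochondrial sets, -0.01 and -0.07, below it.

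Many cytosolic genes were separated between the groups without being called. After scaling, every BAFF tumour library exceeded every control library in 29 of 86 cytosolic genes (33.7%), against 17.3% of all tested genes, and the reverse held for 1 cytosolic gene, Rpl7l1, against 17.8%. Of the 36 small subunit genes, 17 were higher in every BAFF tumour library, and of the 50 large subunit genes 12. In the mitochondrial set 3 of 81 genes, Mrpl33, Mrpl50 and Mrps31, were higher and 5, Mrpl13, Mrpl44, Mrps26, Mrps36 and the pseudogene Mrpl23-ps1, were lower in every BAFF tumour library, both below the background shares. When the 4 shallower libraries were compared by themselves, the medians relative to all genes were 0.02 for cytosolic large, 0.11 for cytosolic small, -0.09 for mitochondrial large and -0.16 for mitochondrial small genes, and 2 cytosolic genes were called higher and 1 mitochondrial gene lower, against 7.58% of all genes.

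Rpl10 encodes a large subunit protein that is added late in assembly. Its scaled level was 38.3, 39.2 and 36.4 CPM in BAFF tumours 1, 2 and 3 and 25.8, 20.8 and 27.7 CPM in control tumours 1, 2 and 3. Every BAFF tumour library was above every control library, also on the deposited scale, where the values were 41.1, 45.0 and 39.1 CPM against 32.9, 18.9 and 18.6 CPM. Limma gave a log2 fold change of 0.61 ± 0.12 (SE) with an adjusted p of 0.00503 after scaling, and of 0.85 ± 0.32 with an adjusted p of 0.1 before it. Of the 10 genes, it alone was called after scaling whichever of the 6 libraries was left out.

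Other called genes of the large subunit were Rpl13 and Rpl37. Rpl13 had scaled levels of 52.0, 56.0 and 52.0 CPM in BAFF tumours and 44.6, 41.1 and 36.4 CPM in control tumours (log2 fold change 0.39 ± 0.11, adjusted p = 0.0265 by limma). For Rpl37 the levels were 28.1, 30.3 and 22.6 CPM against 22.3, 19.1 and 16.7 CPM (0.46 ± 0.14, adjusted p = 0.0444). In Rpl37 the lowest BAFF tumour library lay just above the highest control library. Rpl38, whose protein is needed for translation of Hox messages in the mouse embryo, had the smallest p of all members on the deposited scale, with 13.4, 11.4 and 9.53 CPM in BAFF tumours and 11.4, 5.67 and 2.95 CPM in control tumours (0.84 ± 0.31, adjusted p = 0.0994 by limma). After scaling the groups overlapped, and its adjusted p was 0.0632. Rplp0, which anchors the acidic stalk that recruits elongation factors, was the most abundant large subunit gene at 525 ± 52.7 (SD, n = 3) and 408 ± 89.0 CPM, and its scaled levels overlapped between groups (log2 fold change 0.13, adjusted p = 0.501 by limma).

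In the small subunit, Rps6 encodes the protein phosphorylated by S6 kinases downstream of mTORC1. It stood at 103, 106 and 99.7 scaled CPM in BAFF tumours and 87.3, 71.3 and 69.9 in control tumours, without overlap (0.44 ± 0.11, adjusted p = 0.0149 by limma). Rps28 had 53.8, 54.2 and 50.8 against 43.7, 37.2 and 41.7 scaled CPM (0.37 ± 0.10, adjusted p = 0.0266), and Rps23, a protein of the decoding centre, 65.7, 65.2 and 62.2 against 49.8, 51.1 and 52.4 (0.33 ± 0.09, adjusted p = 0.0298). The groups were separate in each of these genes, and in Rps6 the control libraries differed among themselves by more than the gap between the groups. With pseudogene copies summed into their gene, as described below, 0 of 33 tested genes of this subunit were called after scaling.

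Rps27, a zinc finger protein gene, was read at only 4.19, 3.85 and 4.14 scaled CPM in BAFF tumours and 2.54, 1.87 and 2.55 in control tumours. Its groups were separate (0.61 ± 0.18, adjusted p = 0.0329 by limma), and a pseudocount of 1 CPM understates the fold at this level. Rps12 followed with 13.3, 15.3 and 15.4 against 11.1, 11.6 and 7.65 scaled CPM (0.52 ± 0.16, adjusted p = 0.0469). Rps3a1 had 138, 141 and 132 against 115, 108 and 115 (0.29 ± 0.09, adjusted p = 0.0475), and it was not called when any 1 of the 6 libraries was left out. Rps3, which lines the entry channel for the message and was the most abundant small subunit gene, had 413 ± 42.3 and 306 ± 74.2 CPM (SD, n = 3), and its scaled levels overlapped (0.20 ± 0.10, adjusted p = 0.223 by limma).

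**Figure D3:**
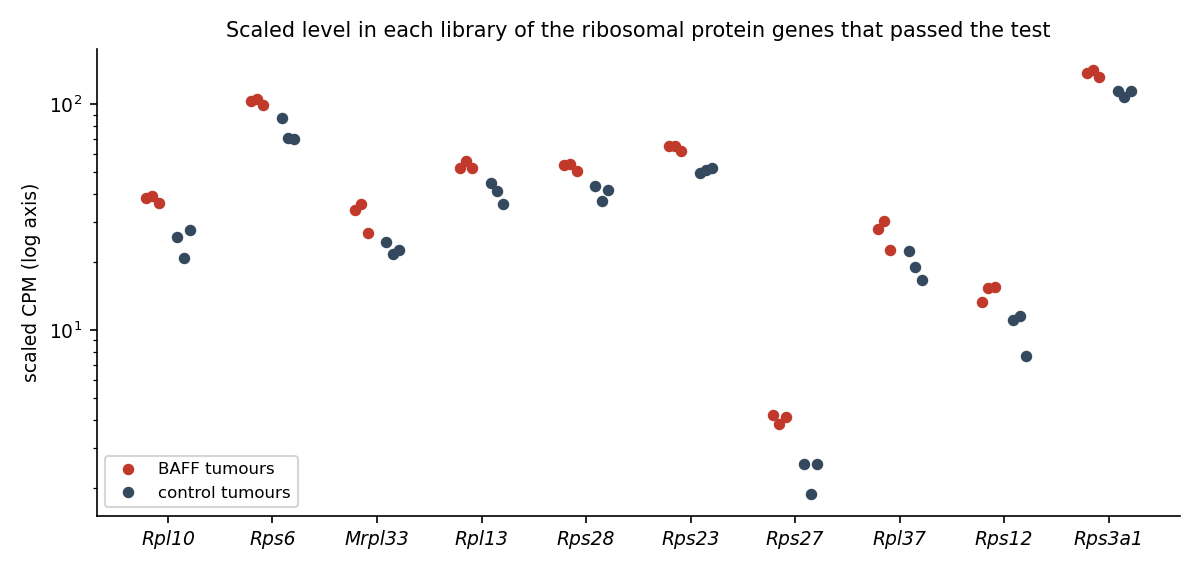
Median-of-ratios scaled CPM (log y axis) of the 10 members with an adjusted p under 0.05, 1 point per library, in order of p. In each gene the 3 BAFF tumour points lie above the 3 control points, from Rpl10 at 36.4 to 39.2 against 20.8 to 27.7 to Rps3a1 at 132 to 141 against 108 to 115.

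Mrpl33, a short protein of the mitochondrial large subunit, was the exception in its set. It had 34.2, 36.2 and 26.8 scaled CPM in BAFF tumours and 24.4, 21.6 and 22.6 in control tumours, without overlap (0.47 ± 0.13, adjusted p = 0.0255 by limma), and it had the highest level per coding length of all mitochondrial members (148 CPM per kb). Mrpl44 differed in the other direction, with 6.27, 6.73 and 4.97 against 7.76, 8.66 and 10.1 scaled CPM, and did not pass (-0.49 ± 0.16, adjusted p = 0.0586). Mrps26 was likewise lower in every BAFF tumour library, at 5.90, 5.94 and 5.98 against 7.24, 8.81 and 9.12 scaled CPM, and did not pass (-0.43 ± 0.15, adjusted p = 0.0694). Mrps31 had 4.54, 4.39 and 4.23 against 4.17, 3.25 and 1.89 (0.43 ± 0.22, adjusted p = 0.201). The remaining mitochondrial members named by their p were Mrpl19 (-0.40, adjusted p = 0.0981), Mrpl52 (0.32, adjusted p = 0.165), Mrpl39 (0.26, adjusted p = 0.315), Mrps27 (-0.36, adjusted p = 0.201) and Mrps18c (0.13, adjusted p = 0.649), and the most abundant small subunit gene, Mrps21, gave 0.23 (adjusted p = 0.261).

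None of the paralogue genes of the cytosolic set was called. Rpl7l1, a relative of Rpl7 linked to ribosome assembly, had 31.3, 34.6 and 35.2 scaled CPM in BAFF tumours and 36.6, 45.3 and 37.0 in control tumours (-0.22 ± 0.11, adjusted p = 0.216 by limma), whereas Rpl7 had a log2 fold change of 0.21. Rps27l, a paralogue of Rps27 induced by p53, gave -0.03 (adjusted p = 0.916) and Rpl22l1, the paralogue of Rpl22, 0.27 (adjusted p = 0.342), beside 0.07 for Rpl22. The differences between paralogues were not tested. The 6 cytosolic rows of pseudogene type that the symbols took in were Rps3a2 (0.25, adjusted p = 0.105), Rps3a3 (0.14), Rpl6l (-0.01), Rpl32l (0.06), Rps4l (-0.06) and Rps12l1 (0.08), and none of them passed.

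Of 8 genes for ribosomal proteins whose symbols lie outside the naming scheme, 1 was called after scaling, against 17.1% of all genes. Fau, which encodes the small subunit protein eS30 fused to a ubiquitin-like protein, had 93.8, 88.1 and 87.8 CPM in BAFF tumours and 77.9, 46.0 and 39.3 CPM in control tumours and rose after scaling (0.53 ± 0.10, adjusted p = 0.00486 by limma). Rpl36al gave 0.24 (adjusted p = 0.122) and the scaffold Rack1 0.10 (adjusted p = 0.567). On the mitochondrial side, Dap3 gave 0.17, Aurkaip1 0.21, Chchd1 0.02, Gadd45gip1 -0.11 and Ptcd3 -0.25, and none of these passed. Pseudogene copies, described below, were sought only for genes taken by symbol. They were not sought for these 8 genes or for the lists that follow.

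The wider pathway was read from 4 lists. Cytosolic translation factors had 5 of 38 tested genes higher and 0 lower after scaling, with a median of 0.07 beside 0.0086 for all genes. Of all tested genes, 7.18% were called higher and 17.1% in either direction, and the counts of all 4 lists are to be read against these shares. Among them, the helicase subunit gene Eif4a2 rose by 0.41 ± 0.09 (adjusted p = 0.008 by limma), Eif5, which promotes GTP hydrolysis by the scanning complex, by 0.39 ± 0.11 (adjusted p = 0.0317) and Eif3k by 0.34 ± 0.10 (adjusted p = 0.0316). The ribosome biogenesis list had 1 of 40 higher and 0 lower with a median of -0.03. The called gene was Taf1d, a component of the RNA polymerase I selectivity factor (0.49 ± 0.10, adjusted p = 0.00481), and Nop10 (0.33, adjusted p = 0.104) and Ebna1bp2 (0.26, adjusted p = 0.149) did not pass. The mitochondrial translation list had 0 of 38 higher and 1 lower with a median of -0.10. The lower gene was Tfam, the packaging and transcription factor of mitochondrial DNA, which fell by 0.53 on the log2 scale (adjusted p = 0.0375, named after its value was seen). The genes of that list with the smallest p before scaling did not pass after it (Yars2 0.51, adjusted p = 0.0577; Ddx28 0.19, adjusted p = 0.545; Slirp 0.17, adjusted p = 0.448).

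Among regulators of ribosomal protein synthesis, 1 of 20 tested genes rose and 2 fell after scaling, near the 17.1% of all genes called in either direction. Mxd1, an antagonist of MYC at shared binding sites, had 425, 388 and 379 CPM in BAFF tumours and 220, 238 and 144 CPM in control tumours and was the only gene of the 4 lists called on the deposited scale (1.01 ± 0.32, adjusted p = 0.036 by limma). After scaling it rose by 0.76 ± 0.14 (adjusted p = 0.00309). Eif4ebp2, which encodes a repressor of cap-dependent translation, had 22.5, 19.2 and 27.5 CPM against 49.6, 29.9 and 29.6 CPM (-0.85 ± 0.16 after scaling, adjusted p = 0.00306). Ppargc1a, a coactivator of mitochondrial biogenesis, had 4.77, 4.68 and 2.17 CPM against 11.8, 6.88 and 6.14 CPM (-1.14 ± 0.22 after scaling, adjusted p = 0.00418). Both repressor and coactivator were lower in every BAFF tumour library than in any control library.

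The levels of cytosolic genes in the table were shared with pseudogene rows, and this limits what a single row says. Altogether 462 pseudogene rows matched a cytosolic member over at least 50% of its coding length, with a median identity of 97.9%. They held a mean of 10830 CPM in sum, beside 7754 CPM for the 88 cytosolic members. These sums overlap, since 5 of the 462 rows, the largest being Rps3a2, are themselves members by symbol. Without those 5 the copies held 6992 to 12680 CPM per library and exceeded the members in each library, whose sums were 5070 to 9570 CPM. For mitochondrial members 28 such rows, 4 of them members by symbol, held 48.5 CPM beside 857 CPM. In 54 of the 82 cytosolic coding genes the gene row held under 50% of the CPM of the family. Rpl5, a 5S ribosomal RNA binding protein gene, stood at a mean of 14.2 CPM and its copy Gm15500 at 438 CPM. Rps6 stood at 93.7 CPM and Rps6-ps4 at 352 CPM, Rpl3 at 81.3 CPM and Rpl3-ps1 at 360 CPM, and Rps3a1 at 129 CPM and Rps3a2 at 301 CPM. The rule by which reads matching several rows were assigned is not given in the sources used here. The values of these rows are therefore uncertain.

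Stretches of 101 bases, the length of 1 read, show how little can separate a gene from its copy. They are taken from GENCODE transcripts (GRCm38) at the place in the coding sequence where gene and copy differ most, and capitals mark the bases that differ.
Rps3a1 (chromosome 3): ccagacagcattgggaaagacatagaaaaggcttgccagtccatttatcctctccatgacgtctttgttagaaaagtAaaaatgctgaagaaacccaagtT
Rps3a2 (chromosome 14): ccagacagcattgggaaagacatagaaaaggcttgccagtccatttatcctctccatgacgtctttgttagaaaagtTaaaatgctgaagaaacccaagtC
Rpl37 (chromosome 15): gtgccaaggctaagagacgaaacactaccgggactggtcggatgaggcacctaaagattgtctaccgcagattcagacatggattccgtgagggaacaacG
Rpl37rt (chromosome 5): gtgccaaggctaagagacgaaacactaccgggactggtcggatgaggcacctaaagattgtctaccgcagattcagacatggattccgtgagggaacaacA
Rps6 (chromosome 4): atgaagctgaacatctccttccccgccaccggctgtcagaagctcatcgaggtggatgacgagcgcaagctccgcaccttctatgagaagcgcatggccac

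The Rps3a1 and Rps3a2 stretches differ at 2 of 101 bases and those of Rpl37 and Rpl37rt at 1. The coding sequence of Rps6 has no base by which any of its 647 windows of read length could be told from Rps6-ps4, so that 1 line stands for both, and the same held for all windows of Rpl5 against Gm15500, of Rpl10 against Rpl10-ps1 and of Rps12 against Rps12l1. Over whole transcripts, the median share of 101-base windows found in another gene was 42.8% for cytosolic and 0% for mitochondrial coding genes. Per kb of coding length, levels ran from 4.37 CPM in Rpl17 to 3293 CPM in Rpl41 among 80 cytosolic genes with a median of 120. Among mitochondrial genes they ran from 3.22 CPM in Mrpl23 to 148 CPM in Mrpl33 with a median of 15.9. The copy Mrpl23-ps1, identical to Mrpl23 over 540 bases, held 15.8 CPM. Each row's CPM was divided by coding length alone (medians 454.5 bases cytosolic, 582 mitochondrial), although whole transcripts had medians of 705 and 1251.5 bases. This can overstate genes with a short coding sequence. Among cytosolic genes, the level per kb was lower where more windows were in common (Spearman's rho -0.675 over 80 genes, a description, as these genes share libraries and reads). The 12 tested coding genes with under 10% of windows in common lay between 50.5 CPM per kb in Rpl7l1 and 683 CPM per kb in Rpl39. The log2 fold change after scaling was only weakly ordered by that share (rho 0.176). Of the 12 genes with under 10% of windows in common, 0 were called after scaling. Of the 36 cytosolic coding genes with over 50% in common 6 were called, against 17.1% of all tested genes in either direction.

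**Figure D4:**
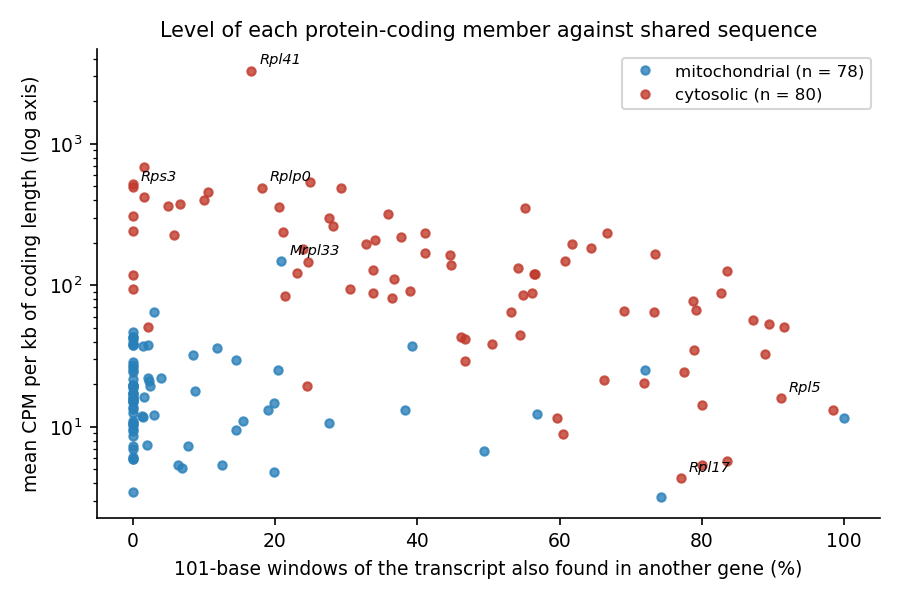
Mean CPM per kb of coding length (log y axis) of each tested protein-coding member against the percentage of its 101-base transcript windows that also occur in another gene (x axis). Cytosolic genes without windows in common, such as Rps3 at 493 CPM per kb, lie above those with many, such as Rpl5 and Rpl17, and most mitochondrial genes lie at the left below 100 CPM per kb.

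The ratio between the ribosomes was also taken in ways less open to this sharing. With only the members that had under 10% of windows in common, the cytosolic over mitochondrial ratio was 3.36, 3.31 and 3.36 in BAFF tumours and 3.04, 2.90 and 3.05 in control tumours. With the copies summed into their gene it was 21.8, 21.4 and 21.7 against 19.6, 18.4 and 19.9. Neither pair overlapped. Single genes changed more. With the copies summed and the scaling repeated, 3 members were called, Rpl10 (0.41 ± 0.12, adjusted p = 0.0278 by limma), Rpl9 (0.42 ± 0.13, adjusted p = 0.0438) and Mrpl33 (0.47 ± 0.13, adjusted p = 0.0244), against 17.6% of all genes. The fold change of Rps6 was then 0.22 (adjusted p = 0.156), that of Rps12 0.16 (adjusted p = 0.398), that of Rpl13 0.10 (adjusted p = 0.543) and that of Rpl37 0.11 (adjusted p = 0.516). Rps28, Rps23 and Rps3a1, whose own rows held 35.6%, 20.4% and 25.5% of the CPM of their families, were not called. The cytosolic set medians were 0.11 for the large and 0.15 for the small subunit.

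**Figure D5:**
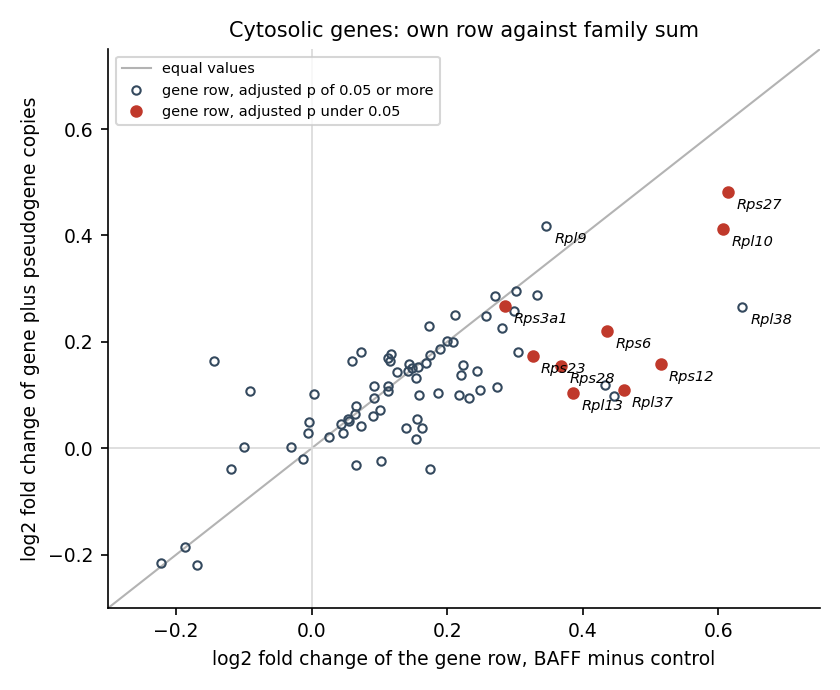
Log2 fold change after scaling of 80 cytosolic protein-coding genes from their own row (x axis) and from the sum of the row and its pseudogene copies (y axis), with the line of equal values; filled points had an adjusted p under 0.05 in their own row. Rpl10 and Rps27 move from 0.61 in their own row to 0.41 and 0.48, and Rps6, Rps12, Rpl13 and Rpl37 move to between 0.10 and 0.22.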

How the data were processed

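RNA sequencing of 6 libraries was analysed from 1 table of CPM values that the authors deposited; per the labels, libraries were made with the unstranded TruSeq RNA v2 kit and read for 101 cycles on a HiSeq. Partek, STAR (2.4.1d) and Bowtie2 (2.2.5) are named in the submitters' processing notes without roles; the sources used here give no genome build, annotation or counting rule. CPM below 400 reads were whole multiples of a step, within 0.05 reads, in 84.2% of values of all genes, 78.7% of mitochondrial and 21.5% of cytosolic ones, so no count model was used.

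Limma-trend (limma 3.58.1, R 4.3.3) was run on log2(CPM + 1) for rows averaging at least 1 CPM, and p-values were adjusted by Benjamini-Hochberg (threshold 0.05); log2 fold changes understate low genes. Prior degrees of freedom were infinite on the deposited scale (7.79 after RLE), so SEs there hardly vary between genes. A count test had been planned only if the table held counts. Scripts were tested on simulated data. Symbols were matched to GENCODE M21 (18238 of 18341), and copies sought with BLAST 2.17.0 (identity of 80% or more). No libraries were alike within sampling noise (smallest chi-square per degree of freedom 7.48). The members, lists and naming rule (smallest p per subunit and scale, most abundant, paralogues, filtered genes, 9 genes outside the scheme, 1 of them not reported here, 3 per list) were chosen with earlier results of these data known. The column of control tumour 2 was matched through its misspelt name.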

Additional observations from a re-analysis of the deposited data

How the results depend on the processing

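Counts of called members moved most. Against 0 on the deposited scale, cytosolic calls were 9 after RLE, 7 with TMM and 4 with upper-quartile factors, 8 with RLE and robust empirical Bayes, 2 in the 4 shallower libraries after RLE, and 2 with pseudogene copies summed after RLE (chosen after seeing the data). Mitochondrial calls were 1, 1, 2, 1, 1 and 1 in the same order. Leaving out each library gave 0 to 49 cytosolic and 0 to 9 mitochondrial calls on the deposited scale, 1 cytosolic without control tumour 3, and 2 to 8 and 0 to 3 after RLE. Correlations of same-numbered deviations were -0.049, 0.052 and -0.039, and those of differently numbered ones ran from -0.055 to 0.089. These values cannot tell whether the replicate numbers pair the libraries. With the replicate numbers as a block 0 members were called, and after RLE 6 cytosolic and 1 mitochondrial. The cytosolic median relative to all genes, 0.17, was 0.076 in the 4 shallower libraries after RLE and 0.25 with no filter, and 0.093 to 0.20 with libraries left out. The mitochondrial median, -0.049, was -0.14 in the 4 shallower libraries after RLE and 0.031 with no filter. With no filter the median of all genes was 0.15 in place of 0.23. Before it was subtracted, the cytosolic and mitochondrial medians were 0.40 and 0.18 with and without the filter. The cytosolic large over small log2 ratio, -0.062, was -0.041 with copies summed, -0.10 with members under 10% shared windows (both chosen after seeing the data) and -0.082 in the 4 shallower libraries. From medians of log2(CPM + 1) it was -0.053, with overlapping groups, and the mitochondrial one, 0.042, was 0.099. The cytosolic share of listed CPM, 0.076 percentage points higher in BAFF tumours, was 0.0074 higher without the ribosomal RNA gene. The cytosolic over mitochondrial log2 ratio, 0.18, stayed between 0.15 and 0.20 in the alternatives tried other than the deep pair alone. That pair lay below this range, with log2 ratios of 3.24 in BAFF tumour 2 and 3.10 in control tumour 1. The cause of the shifts other than those with no filter was not tested. Depth was lowest in control tumour 3, at 4.72 reads per CPM.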
